A study of Mus musculus with 4 samples.

Results

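A set of 7 genes known as markers of the thalamus was followed in RNA from mouse hippocampus: Tcf7l2, Lef1, Gbx2, Prkcd, Rgs16, Plekhg1 and Ntng1. They were picked by name from the deposited table, which holds 23466 gene symbols, and each gene was represented by its RefSeq record with the highest mean over the 4 libraries. All 7 were found, and all 7 passed the filter on low values, which kept 18127 genes. The mutants were the libraries numbered 38 and 39, with the genotype Atp6ap2Camk2aCre/0 in the condition field and ko in the titles, and the wild-types were those numbered 11 and 73, given as wt. The condition field also calls the mutants conditional het, and the labels do not say how this relates to ko. All 4 libraries came from frozen hippocampus at postnatal day 30 of C57BL/6N mice. The name Camk2aCre points to a Cre recombinase under the Camk2a promoter, which is active in excitatory neurons of the forebrain, so cells outside that population would keep the gene. Atp6ap2 encodes an accessory protein of the vacuolar proton pump, and the series title names it as a candidate gene for intellectual disability and parkinsonism.

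The thalamus lies below the hippocampus and relays sensory and motor signals to the cortex. Its excitatory relay neurons are set apart from forebrain neurons by transcription factors of their own, among them Gbx2, Tcf7l2 and Lef1, and they carry a kinase, signalling regulators and axonal surface proteins that are scarcer in hippocampal pyramidal cells. None of the genes is exclusive to the thalamus. Tcf7l2 is also used by oligodendrocytes at the start of myelination, and Lef1 by endothelial cells of brain vessels.

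Depth, as read equivalents summed over genes, was lowest in wild-type 73 at 10023033 and highest in wild-type 11 at 18339838, with both mutants in between, and the deposited values are scaled for it. A scaled read equivalent is a deposited value, in aligned bases, divided by the 42 bases that 1 read contributes. It is not divided by transcript length, so levels are compared between libraries and not between genes. Markers of CA1, CA3 and CA2, and dentate neurons were read in every library; no gene of these lists was at 0 in any library. The targeted Atp6ap2 stood at 2551 and 2522 scaled read equivalents in mutants 38 and 39, against 2312 and 2637 in wild-types 11 and 73, a value over the whole transcript that does not check the deletion. Choroid plexus markers set the libraries apart without regard to group, with Ttr, the thyroxine carrier of that tissue, at 70079 in mutant 38 and 1749 in mutant 39, against 41492 in wild-type 11 and 2562 in wild-type 73. The labels do not say that the samples came from separate animals, and p-values then measure only the spread between these samples.

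Every one of the 7 genes had its highest value in mutant 38, whereas 26.5% of all genes tested did. In 4 of the 7, namely Prkcd, Tcf7l2, Gbx2 and Rgs16, mutant 38 lay at least 2-fold above the highest of the other libraries on the log2(read equivalents + 1) scale, and 0.761% of all genes tested did so. Mutant 39 was the highest library for 0 of the 7, against 22.4% of all genes. All 7 had a higher mean log2 value in mutants than in wild-types, as did 51.3% of all genes. As a comparison of mutant with wild-type, 0 of the 7 genes passed in limma at an adjusted p below 0.05, where 0.00552% of all genes did, and 1 of 7, Plekhg1, had an unadjusted p below 0.05 in the higher direction, against 2.18% of all genes. The median log2 fold change of the 7 genes was 0.78, beside 0.01 over all genes tested, and without mutant 38 it was 0.0030, beside 0.0052 over all genes. Mutant 39 alone against the wild-types gave 0 of 7 members at an adjusted p below 0.05 in limma (0.0449% of all genes) and 0 of 7 at an unadjusted p below 0.05 in the higher direction (1.38% of all genes).

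**Figure D1:**
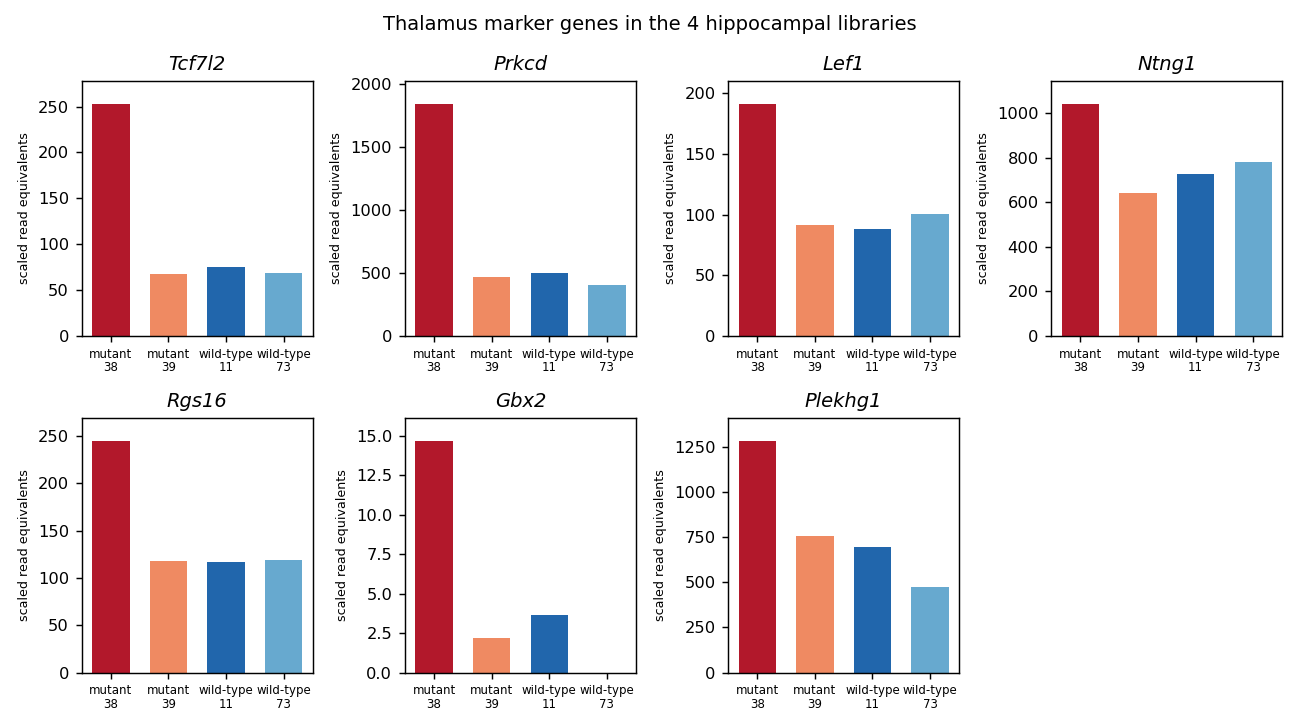
Scaled read equivalents (y axis, linear from 0, own scale per gene) of the 7 thalamus marker genes in each library (x axis), with 1 bar per library and no error bar. Mutant 38 holds the tallest bar in every panel, and mutant 39 stands within or near the range of the wild-types, a little above it in Plekhg1 and a little below it in Tcf7l2 and Ntng1.

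Among the transcription factors, Tcf7l2, the main effector of Wnt signalling in thalamic neurons and a regulator of their identity and firing, had 252.6 scaled read equivalents in mutant 38 and 67.2 in mutant 39, against 75.5 in wild-type 11 and 68.4 in wild-type 73. Mutant 38 stood 3.35-fold above the next library, while the other three libraries lay within 1.12-fold of each other, so the groups overlapped. Between mutant and wild-type the log2 fold change came to 0.85 ± 0.55 (SE, 2 libraries per group), with a 95% interval of -0.44 to 2.15 and an adjusted p of 0.989 in limma, and it was -0.095 without mutant 38. All 8 RefSeq records of Tcf7l2 were highest in mutant 38, by a log2 difference of 1.70 to 1.97 from the next library. Records of a gene can share reads, so they are not separate evidence.

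Lef1, a TCF/LEF factor that binds the same DNA motif as Tcf7l2, had 191.1 scaled read equivalents in mutant 38 and 91.7 in mutant 39, against 87.9 in wild-type 11 and 100.5 in wild-type 73. Mutant 38 stood apart, by 1.90-fold over the next library, and mutant 39 lay between the wild-types. Lef1 had a log2 fold change of 0.49 ± 0.34 (SE, 2 libraries per group, limma adjusted p = 0.989) and -0.034 without mutant 38. Its 3 records gave log2 differences of mutant 38 from the next library between 0.92 and 1.12.

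Gbx2, a homeobox factor that thalamic neurons need to differentiate and to send axons to the cortex, was close to the detection limit. It had 14.7 scaled read equivalents in mutant 38 and 2.17 in mutant 39, against 3.66 in wild-type 11 and 0 in wild-type 73. Before scaling, mutant 38 held 17.4 and mutant 39 held 2.40 read equivalents, against 4.38 in wild-type 11 and 0 in wild-type 73. These are few reads in every library, and mutant 39 lay between the wild-types. The fitted log2 fold change of 1.71 ± 1.03 (SE, n = 2 per group; limma adjusted p = 0.989) depends on the pseudocount and was 0.85 with a pseudocount of 5 and 2.14 with 0.5.

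The DNA before the start sites of these genes was read from RefSeq (GRCm38.p6) because Tcf7l2 and Lef1 act on a shared motif. The motif CTTTGAT, searched on both strands over 250 bases before and 50 bases after each start, was in 0 of 12 member promoters and in 3.73% of all 32851 promoters. Its shorter core CTTTG, likewise searched on both strands and added after the first result was seen, was in 10 of 12 member windows of 250 bases before the start, or 83.3%, and in 48.6% of all windows. Lef1 contributes 4 of the 12 windows, and some of them overlap. Of the 4 members with an at least 2-fold excess in mutant 38, Prkcd has windows with 2 and 1 cores, which are not printed. A further window of Tcf7l2, with 1 core, is not printed either. The 3 windows given, 1 each for Tcf7l2, Gbx2 and Rgs16, have the core, on either strand, in capitals, to show where it falls in them. They lie at chr19:55741560-55741809 (plus strand) for Tcf7l2, chr1:89931177-89931426 (minus strand) for Gbx2 and chr1:153740103-153740352 (plus strand) for Rgs16, whose window holds no core.
Tcf7l2: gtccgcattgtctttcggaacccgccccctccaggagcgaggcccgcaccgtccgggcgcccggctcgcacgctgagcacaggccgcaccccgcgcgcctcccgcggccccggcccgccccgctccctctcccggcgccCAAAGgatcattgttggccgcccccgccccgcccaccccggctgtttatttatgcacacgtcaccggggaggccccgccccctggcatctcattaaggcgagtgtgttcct
Gbx2: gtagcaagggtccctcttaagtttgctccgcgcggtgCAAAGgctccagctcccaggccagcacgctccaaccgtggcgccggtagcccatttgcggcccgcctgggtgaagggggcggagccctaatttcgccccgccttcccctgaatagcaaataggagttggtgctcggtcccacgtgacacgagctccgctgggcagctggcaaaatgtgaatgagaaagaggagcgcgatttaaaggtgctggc
Rgs16: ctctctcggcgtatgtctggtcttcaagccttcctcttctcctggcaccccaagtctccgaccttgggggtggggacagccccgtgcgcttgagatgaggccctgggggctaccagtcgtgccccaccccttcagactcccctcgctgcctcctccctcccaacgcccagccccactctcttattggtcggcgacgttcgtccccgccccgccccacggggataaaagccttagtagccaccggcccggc
A match is a string of letters and not a binding site, and factor binding was not measured here.

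Among the signalling genes, Prkcd, the delta isoform of protein kinase C and an abundant kinase of sensory relay nuclei, had 1841 scaled read equivalents in mutant 38 and 465 in mutant 39, against 499 in wild-type 11 and 405 in wild-type 73. Mutant 38 lay 3.69-fold above the next library and mutant 39 lay between the wild-types. Among the 13029 genes with a mean of at least 50 read equivalents, the gap between mutant 38 and the next library put Prkcd at rank 3, Tcf7l2 at rank 4, Rgs16 at rank 25, Lef1 at rank 34, Plekhg1 at rank 66 and Ntng1 at rank 275, and Gbx2 was below that mean. For Prkcd the log2 fold change of mutant over wild-type came to 1.04 ± 0.55 (SE, 2 libraries per group), with a 95% interval of -0.26 to 2.34 and an adjusted p of 0.989 in limma. It was 0.05 without mutant 38 and 2.03 without mutant 39. The fit without mutant 39 holds 1 mutant library, whose spread is not measured and is assumed to be like that of the wild-types. Passing in it therefore does not show a difference between genotypes. In that fit of mutant 38 against the wild-types 1 of 7 members passed, and 0.0392% of all genes did.

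Rgs16, which speeds the shut-off of G proteins downstream of neurotransmitter receptors, had 244.7 scaled read equivalents in mutant 38 and 117.8 in mutant 39, against 116.6 in wild-type 11 and 118.5 in wild-type 73. The other three libraries lay within 1.02-fold of each other, and mutant 38 stood 2.07-fold above them. Rgs16 had a log2 fold change of 0.53 ± 0.33 (SE, 2 libraries per group, limma adjusted p = 0.989) and 0.0030 without mutant 38.

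Plekhg1, a guanine nucleotide exchange factor, was the only member in which the groups did not overlap, a pattern that 16.8% of all genes showed in the higher direction. It had 1281 scaled read equivalents in mutant 38 and 755 in mutant 39, against 694 in wild-type 11 and 473 in wild-type 73. Mutant 38 was again highest, and mutant 39 lay closer to wild-type 11 than the wild-types lay to each other. Its log2 fold change of 0.78 ± 0.27 (SE, 2 libraries per group) had a 95% interval of 0.13 to 1.42, an unadjusted p of 0.0248 and an adjusted p of 0.989 in limma. Without mutant 38 it was 0.40 ± 0.23 (SE, limma adjusted p = 1.00).

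Ntng1 encodes netrin-G1, a lipid-anchored protein on thalamocortical axons that binds the synaptic adhesion protein Lrrc4c. It had 1042 scaled read equivalents in mutant 38 and 644 in mutant 39, against 729 in wild-type 11 and 782 in wild-type 73. The mutants lay on either side of the wild-types, and mutant 38 exceeded the next library by 1.33-fold. Ntng1 had a log2 fold change of 0.12 ± 0.21 (SE, 2 libraries per group, limma adjusted p = 0.989), and -0.23 without mutant 38. All 6 of its records were highest in mutant 38. Across the 7 genes, all 22 records were highest there.

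**Figure D2:**
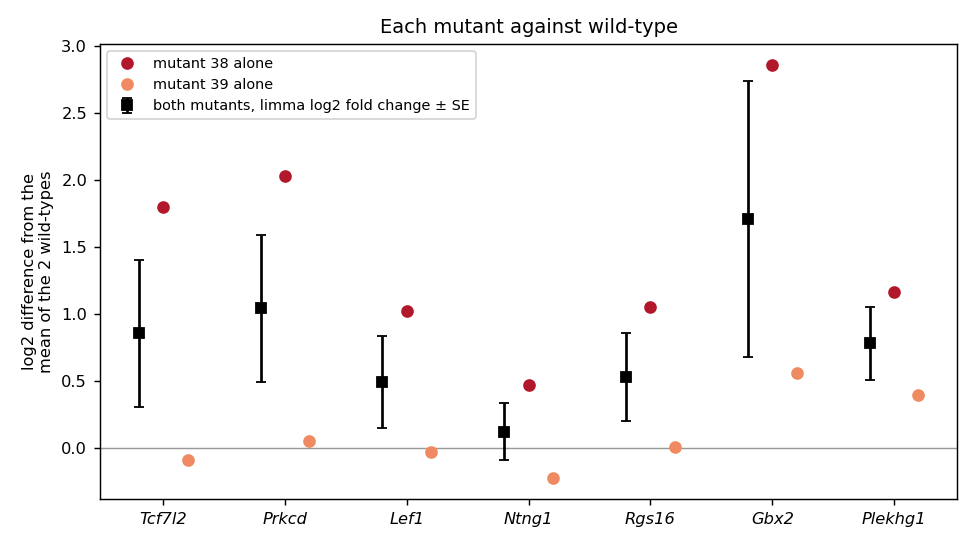
Log2 difference from the mean of the wild-types (y axis) for the 7 genes (x axis), for mutants 38 and 39 alone (circles) and for the limma fit over both mutants (squares, bars ± SE, n = 2 per group). Mutant 38 lies above 0 for every gene, from 0.46 for Ntng1 to 2.86 for Gbx2, and mutant 39 runs from -0.23 for Ntng1 to 0.56 for Gbx2.

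Permuting the 4 labels exactly has a smallest two-sided p of 0.333, and this exact permutation test gave 0.333 for Plekhg1 and 0.667 to 1 for the other members. In the authors' deposited table, 2 of the 7 genes had a p below 0.05 in the record used, Plekhg1 (p = 0.00185) and Tcf7l2 (p = 0.0306), and such a p with a higher mutant mean was found for 1.2% of all genes. The authors' deposited table gives Rgs16 a p of 0.104, Lef1 0.146, Prkcd 0.164, Gbx2 0.292 and Ntng1 0.486. Its header does not say whether these p-values were adjusted.

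Other genes known for thalamic neurons were also high in mutant 38. Of a list of 12, chosen with earlier results of these data known, 11 were highest in mutant 38, beside 26.5% of all genes. In 7, mutant 38 lay at least 2-fold above the next library, beside 0.761% of all genes. In limma 0 passed, and 2 had an unadjusted p below 0.05 in the higher direction, beside 2.18% of all genes. The summed level of the 12 genes was 5661 scaled read equivalents in mutant 38 and 2278 in mutant 39, against 2191 in wild-type 11 and 2234 in wild-type 73. The summed level of the 7 members was 4867 and 2143 in mutants 38 and 39, against 2207 and 1947 in wild-types 11 and 73. Synpo2, an actin-binding protein gene, had 274.5 in mutant 38 and 66.8 in mutant 39, against 87.3 and 74.4 in wild-types 11 and 73. Shox2, a homeobox factor gene, had 69.3 in mutant 38 and 1.59 in mutant 39, against 0 and 3.20 in wild-types 11 and 73. Both were high in mutant 38 alone. The troponin gene Tnnt1 had 105.4 and 15.4 in mutants 38 and 39 and 14.9 and 11.3 in wild-types 11 and 73, and the angiomotin-like gene Amotl1 had 1801 and 636 in mutants 38 and 39 and 789 and 703 in wild-types 11 and 73. Ramp3, a receptor-modifying protein gene, had 114.2 and 40.5 in the mutants and 35.2 and 54.1 in the wild-types. Zic1, a zinc finger factor gene, had 1243 in mutant 38 and 170.4 in mutant 39, against 330.4 in wild-type 11 and 286.1 in wild-type 73. Slitrk6, a neuronal transmembrane protein gene, had 115.5 in mutant 38 and 5.42 in mutant 39, against 15.9 in wild-type 11 and 12.6 in wild-type 73. In both genes mutant 38 was highest and mutant 39 lowest, as in Zic4, Synpo2 and Amotl1. Foxp2, a forkhead factor gene, had 152.5 and 63.5 in the mutants and 44.4 and 112.1 in the wild-types. The exception was Lhx9, a LIM homeobox gene, with 275.0 and 172.5 in mutants 38 and 39 and 182.3 and 287.9 in wild-types 11 and 73.

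In 3 of the 12 genes of that list, Slc17a6, Rora and, narrowly, Tnnt1, mutant 39 was above both wild-types too. Both mutants were above both wild-types in 16.8% of all genes. Slc17a6, the vesicular glutamate transporter of thalamic relay neurons, had 954 scaled read equivalents in mutant 38 and 783 in mutant 39, against 380 in wild-type 11 and 408 in wild-type 73. Slc17a6 had a log2 fold change of 1.13 ± 0.14 (SE, 2 libraries per group, limma adjusted p = 0.123), and 0.99 ± 0.19 without mutant 38 (SE, limma adjusted p = 0.287). The authors' deposited table gives Slc17a6 a p of 9.21e-10. Rora, a nuclear receptor gene, had 396 and 289 in the mutants and 230 and 216 in the wild-types (log2 fold change 0.60 ± 0.18 SE, n = 2 per group, limma adjusted p = 0.989). The authors' deposited table gives Rora a p of 0.0149. In the authors' deposited table, 4 of the 12 genes had a p below 0.05 with a higher mutant mean, beside 1.2% of all genes. Whether Slc17a6, Rora and Tnnt1 differ from the members in being high in mutant 39 was not tested.

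**Figure D3:**
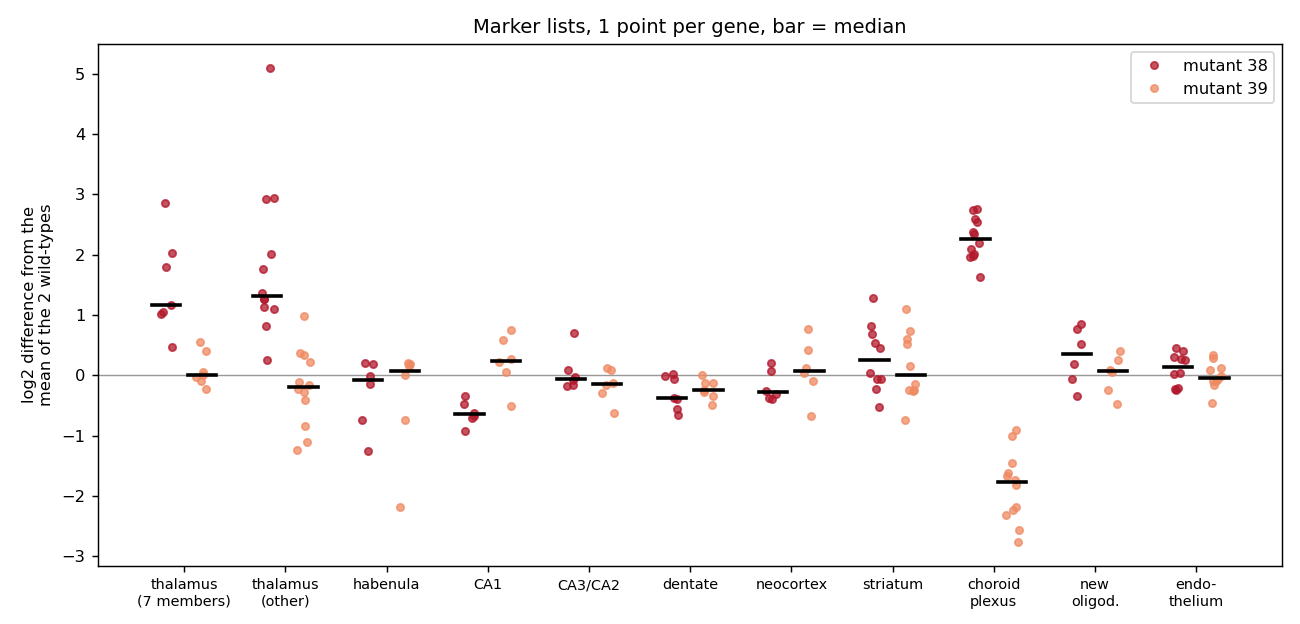
Log2 difference of mutant 38 (left of each pair) and mutant 39 (right of each pair) from the mean of the wild-types (y axis) for each gene of the marker lists (x axis), with a bar at the median. For the 7 members the medians are 1.16 in mutant 38 and 0.0030 in mutant 39, and for the other thalamus genes 1.32 and -0.19.

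Markers of other tissue beside the hippocampus were set next to these values. Habenula genes, from the nuclei that adjoin the thalamus, were highest in mutant 38 in 1 of 6, beside 26.5% of all genes. Their summed levels were 75.2 and 95.5 in mutants 38 and 39 and 82.9 and 128.4 in wild-types 11 and 73. These genes had few reads, from 0.90 scaled read equivalents for Chrnb4 in mutant 39 to 42.1 for Tac2 in wild-type 73. The habenula count therefore says little about that tissue. All 12 choroid plexus markers were highest in mutant 38, where 26.5% of all genes were, with summed levels of 82291 and 2871 in mutants 38 and 39 and 49055 and 3709 in wild-types 11 and 73. Wild-type 11 was also rich in choroid plexus RNA, and its log2 differences from wild-type 73 were 0.14 for Tcf7l2, 0.30 for Prkcd, -0.19 for Lef1, -0.10 for Ntng1, -0.02 for Rgs16, 0.55 for Plekhg1 and, with few reads, 2.22 for Gbx2. Within the libraries rich in choroid plexus RNA, the median log2 difference of the members between mutant 38 and wild-type 11 was 1.11, and within the libraries poor in it, between mutant 39 and wild-type 73, it was -0.0084. For Prkcd these differences were 1.88 and 0.20, and for Plekhg1 0.88 and 0.67. In a fit that includes the mean log2 choroid plexus level and leaves 1 residual degree of freedom, Prkcd and Plekhg1 passed in limma with log2 fold changes of 0.97 ± 0.18 (SE, adjusted p = 0.00280) and 0.74 ± 0.12 (SE, adjusted p = 0.000616). That is 2 of 7 members, beside 0.629% of all genes.

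All 6 CA1 markers were lowest in mutant 38, where 24.1% of all genes were, with summed levels of 5364 and 9299 in mutants 38 and 39 and 7790 and 8916 in wild-types 11 and 73. In mutant 39, 4 of the 6 were highest, beside 22.4% of all genes. Both mutants lay below both wild-types in 1, Fibcd1, as in 2987 of the 18127 genes tested. Fibcd1 had 1392 and 1600 in mutants 38 and 39 and 2243 and 2299 in wild-types 11 and 73. Its log2 fold change was -0.60 ± 0.11 (SE, 2 libraries per group), with an unadjusted p of 0.00078 and an adjusted p of 0.420 in limma. Of 7 dentate markers 4 were lowest in mutant 38 and the other 3 in mutant 39. A higher mean log2 value in mutants than in wild-types was found in 0 of 7, beside 51.3% of all genes. The summed levels of the dentate markers were 6362 and 6331 in mutants 38 and 39 and 7156 and 7562 in wild-types 11 and 73. In limma 0 dentate markers passed, with 2, C1ql2 and Plk5, at an unadjusted p below 0.05 in the lower direction, beside 1.75% of all genes. Of 6 CA3 and CA2 markers 2 were lowest in mutant 38. Neocortex markers were highest in mutant 38 in 1 of 6 and striatum markers in 3 of 10, beside 26.5% of all genes. In bulk tissue, more cells of a type and more RNA per cell cannot be told apart. The part of tissue composition in the high thalamic values of mutant 38 was not tested.

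**Figure D4:**
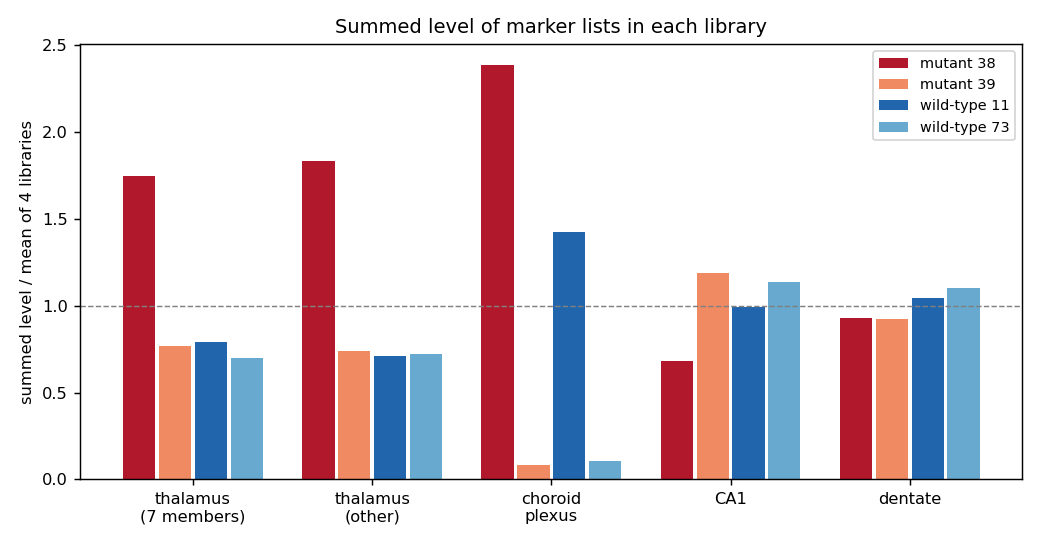
Summed level of each marker list in each library, divided by its mean over the 4 libraries (y axis, linear from 0; dashed line at 1), for thalamus, choroid plexus, CA1 and dentate lists (x axis). Mutant 38 is above all other libraries for both thalamus lists and for choroid plexus and below them for CA1, while wild-type 11 is far above the mean for choroid plexus and near or below it for the other lists.

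Cell types that use Tcf7l2 or Lef1 outside the thalamus were described the same way. Markers of newly formed oligodendrocytes were highest in mutant 38 in 4 of 6, beside 26.5% of all genes. Their summed levels were 4400 and 3954 in mutants 38 and 39 and 4070 and 3626 in wild-types 11 and 73. Both mutants were above both wild-types in 3 of the 6, as in 16.8% of all genes, and below them in 1. At an unadjusted p below 0.05 in limma, Enpp6 was higher and Gpr17 lower, where 2.18% and 1.75% of all genes were. Endothelial markers were highest in mutant 38 in 4 of 10, beside 26.5% of all genes, with sums of 4062 and 3722 in the mutants and 3791 and 3624 in the wild-types. Of 19 further genes of TCF/LEF signalling, 6 were highest in mutant 38, beside 26.5% of all genes. In limma 0 of the 19 passed, and 2 had an unadjusted p below 0.05, both in the lower direction, where 1.75% of all genes did. These were Bcl9l, a co-activator of beta-catenin, with 314 and 290 in the mutants and 428 and 445 in the wild-types, and Axin2, a common Wnt target, with 356 and 330 in the mutants and 451 and 437 in the wild-types (log2 fold change -0.53 ± 0.13 and -0.37 ± 0.13, SE, n = 2 per group, limma adjusted p = 0.940 and 0.989). The TCF/LEF relative Tcf7 had 21.5 and 18.8 in the mutants and 30.8 and 16.9 in the wild-types, and Tcf7l1 had 31.7 and 16.0 in the mutants and 21.1 and 13.9 in the wild-types. Their groups overlapped.

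Relatives of the other members were read next. Of 8 further protein kinase C genes, 2 were highest and 4 were lowest in mutant 38, and 5 were highest in mutant 39, where 22.4% of all genes were. The 2 highest in mutant 38 included Prkch, the eta isoform, with 168.8 and 95.5 in mutants 38 and 39 and 69.5 and 74.1 in wild-types 11 and 73 (log2 fold change 0.82 ± 0.30 SE, n = 2 per group, limma adjusted p = 0.989). Of 4 netrin-G relatives and ligands, 0 were highest and 4 were lowest in mutant 38, among them Lrrc4c, the binding partner of netrin-G1, with 1564 and 1872 in the mutants and 1688 and 1973 in the wild-types. Of 7 small RGS genes tested 4 were highest and 1 was lowest in mutant 38, and of 6 genes from the Plekhg and Gbx families 3 were highest and 3 lowest there. Of 9 ion channel genes of thalamic burst firing 2 were highest and 5 were lowest in mutant 38, where 26.5% and 24.1% of all genes were. The median log2 difference of these 9 genes between mutant 38 and the wild-types was -0.18. The 2 highest included the T-type calcium channel gene Cacna1g, with 1228 and 1004 in the mutants and 877 and 997 in the wild-types. In limma, 0 genes of these families passed. At an unadjusted p below 0.05 in the higher direction there were 2 small RGS genes, 1 protein kinase C gene and 1 gene of the Plekhg and Gbx families. In the lower direction there was 1 gene of the Plekhg and Gbx families. Over all genes the shares were 2.18% in the higher and 1.75% in the lower direction.

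The genes whose pattern over the 4 libraries lay closest to the mean pattern of the 7 members were found among 11668 other genes with a mean of at least 100 read equivalents. Likeness was the root mean square distance between log2 values centred on each gene's own mean. The nearest were Ret, a receptor tyrosine kinase gene (distance 0.08), Plcb4, a phospholipase C gene (0.11), Inadl, a cell polarity gene (0.15), Amotl1 (0.16) and Tinagl1, an extracellular matrix gene (0.18). Ret had 233.8 and 91.1 scaled read equivalents in mutants 38 and 39 and 86.6 and 75.1 in wild-types 11 and 73. Plcb4 had 920 and 402 in the mutants and 384 and 340 in the wild-types. Both were high in mutant 38, and a pattern over 4 libraries is a description of those libraries. Among the members themselves the distance to that mean ran from 0.21 for Tcf7l2 to 0.45 for Ntng1 and 0.85 for Gbx2.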

How the data were processed

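Total RNA of frozen hippocampus was depleted of ribosomal RNA, reverse transcribed with random primers with the strand kept by the dUTP method, and sequenced from a single end, per the labels' protocols. GSNAP and DESeq2 were used with build mm9, per the submitters' processing notes, which name neither versions nor roles. What counted the reads, on which strand and with which annotation, is not given in the sources used here. The authors deposited 31315 records with 1 signal value per library, which are aligned bases over a transcript divided by a scaling factor per library, and 1 p-value per record named after DESeq. In every library 100% of values were whole multiples of a step (within 0.05 of a step), with low values at 42, 84 and 126 steps, so values were divided by 42. Reads shared by transcripts can be in each of them.

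A gene was represented by its record with the highest mean. The filter kept genes that reached 1 read equivalent in 2 or more libraries. They entered limma 3.58.1 (R 4.3.3) as log2(read equivalents + 1) (variance trend, two-sided, Benjamini-Hochberg at 0.05), with group as the only term. On this scale a fold change is understated where reads are few. The edgeR and DESeq2 fits planned for counts do not suit this unit and were left out. The fit was tested on simulated data. The members, lists and tests were chosen with earlier results of these data known. The rule for named genes takes the 7 members, Slc17a6, the rest of the thalamus list, the 5 genes nearest in pattern, and up to 3 genes of each other list with the smallest p-values. Not all genes that it names, nor all of the first 10 by their excess in mutant 38, are reported here, and Tcf7, Tcf7l1 and Lrrc4c were named outside it, after their values were seen. Tables and plots came from Python 3.11.15 with matplotlib 3.10.9. No coordinates of the mm9 files are printed, and promoter positions are those of GRCm38.p6.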

Additional observations from a re-analysis of the deposited data

How the results depend on the processing

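The number of genes that passed was 1 with all libraries. It ran from 1 to 37 when each library was left out in turn (8 without mutant 38, 7 without mutant 39, 37 without wild-type 11 and 1 without wild-type 73). It was 0 without a variance trend, 12 with a robust variance prior, 114 with choroid plexus level in the fit and 0 with values left in bases, an alternative chosen after seeing the data. The median log2 fold change of the 7 members ran from 0.0030 (without mutant 38) to 1.16 (without mutant 39) over the libraries left out. When each library was left out, the log2 fold change ran from -0.095 to 1.80 for Tcf7l2, from -0.034 to 1.02 for Lef1 and from -0.23 to 0.46 for Ntng1, and the negative values are those without mutant 38. Slc17a6 passed with a robust variance prior (1.13, limma adjusted p = 0.0445) and with the choroid plexus covariate (1.12, limma adjusted p = 5.33e-06), and over its 14 alternatives the adjusted p ran up to 0.568. Of the members, Prkcd passed without mutant 39 and with the covariate, over adjusted p-values of 0.00280 to 1.00, and Plekhg1 with the covariate, over 0.000616 to 1.00. When a mutant or wild-type library is left out, the lone sample of that group is assumed to vary like the other group. The cause of these shifts was not tested. Gbx2 has no value under the filter at a mean of 10 read equivalents. No paired analysis was possible because the mutants and wild-types share no replicate number. Gbx2 rests on 0 to 17.4 read equivalents before scaling, so its values carry the most counting error of the 7 members.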

Other observations

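Among the genes with a mean of at least 50 read equivalents, those furthest above the next library in mutant 38 were led by Rab37, a vesicle trafficking gene, with 146.6 scaled read equivalents in mutant 38 and 34.9 in mutant 39, against 28.2 in wild-type 11 and 24.1 in wild-type 73. Zic1, Prkcd, Tcf7l2 and Synpo2 of the thalamus lists were also among the first 10, as were Pld5, Cish, Zfhx3 and Ret. The thalamus lists were chosen with earlier results of these data known, so their place in this ranking is not separate evidence. Zfhx3, a zinc finger homeobox factor gene, had 412.4 and 77.6 in the mutants and 148.5 and 96.7 in the wild-types. Cish, an inhibitor of cytokine signalling, had 109.3 and 34.6 in the mutants and 31.7 and 31.6 in the wild-types. These genes were named after their values were seen, and they describe a single library.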
